A study of Mus musculus with 2 samples.

Results

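Genes that set the tone of the pulmonary vessels were examined for binding of EP300 in the lung of newborn mice. The 9 genes were Nos3, Gucy1a1, Prkg1 and Pde5a of nitric oxide and cGMP signalling, Edn1, Ece1 and Ednra of endothelin signalling, the prostacyclin gene Ptgis and the potassium channel gene Kcnk3. A peak belonged to a gene when its summit lay within 100 kb of one of that gene's transcription start sites (TSSs) and no other protein-coding gene had a nearer one, or when the summit lay inside the gene. This rule took 66 of 43988 reproducible peaks (0.150%). It names the gene beside a site, and no link between a site and the gene's activity was measured.

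EP300 is a lysine acetyltransferase and coactivator that DNA-bound transcription factors bring to active enhancers and promoters. Chromatin immunoprecipitation with sequencing (ChIP-seq) against EP300 was done on lung tissue of B6NCrl mice at postnatal day 0, with no treatment or altered allele named in the labels. The 2 libraries form 1 group and are numbered as biological replicates 1 and 2, but their labels point to a single donor and a single biosample, so their differences may be only technical. No comparison between conditions was possible. A list of 300000 peaks came with each library, and the reproducible peaks are the optimal set that the authors derived from the lists of both libraries and of their pool by the irreproducible discovery rate (IDR). The lists hold no read counts, so the depth of the libraries is unknown.

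At birth the resistance of the lung vessels falls as the lung fills with air. Nitric oxide from the endothelial synthase (Nos3) activates soluble guanylate cyclase in smooth muscle, whose alpha subunit is encoded by Gucy1a1. The cGMP it makes activates the kinase encoded by Prkg1, which relaxes the muscle, and is broken down by the phosphodiesterase encoded by Pde5a. Endothelin-1 (Edn1) is released from its precursor by the converting enzyme Ece1 and constricts vessels through the receptor Ednra on smooth muscle. Prostacyclin synthase (Ptgis) makes a lipid that dilates vessels, and Kcnk3 encodes an acid-sensitive potassium channel that can help set the resting potential of smooth muscle cells.

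The centres of the strongest peak at each gene that held any of 15 short consensus sequences are shown here, since these stretches lie under the EP300 summits that the values below describe. Each is the 100 bases around the summit on the plus strand of GRCm38 (mm10), 5′ to 3′, and capitals mark the matches on either strand. For Nos3, Gucy1a1, Prkg1, Pde5a, Ece1, Ednra, Ptgis and Kcnk3 this was also the strongest peak of the gene, and for Edn1 it was the second strongest, at the promoter.
Nos3 peak, chr5:24361265-24361364: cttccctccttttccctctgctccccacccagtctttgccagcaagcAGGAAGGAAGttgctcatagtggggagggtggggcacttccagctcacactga
Gucy1a1 peak, chr3:82180395-82180494: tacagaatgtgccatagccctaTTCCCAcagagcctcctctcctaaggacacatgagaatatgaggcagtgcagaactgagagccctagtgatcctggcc
Prkg1 peak, chr19:31751469-31751568: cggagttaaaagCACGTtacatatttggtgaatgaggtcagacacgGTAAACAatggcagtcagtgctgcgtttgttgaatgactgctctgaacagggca
Pde5a peak, chr3:122704275-122704374: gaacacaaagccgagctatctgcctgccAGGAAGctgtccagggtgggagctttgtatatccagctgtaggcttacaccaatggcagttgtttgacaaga
Edn1 peak, chr13:42301399-42301498: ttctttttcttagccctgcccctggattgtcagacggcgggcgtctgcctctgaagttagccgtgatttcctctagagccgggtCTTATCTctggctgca
Ece1 peak, chr4:137955168-137955267: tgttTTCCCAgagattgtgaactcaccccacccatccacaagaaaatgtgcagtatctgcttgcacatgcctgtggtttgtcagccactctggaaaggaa
Ednra peak, chr8:77803233-77803332: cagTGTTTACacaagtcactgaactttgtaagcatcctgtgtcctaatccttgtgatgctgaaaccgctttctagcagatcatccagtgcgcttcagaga
Ptgis peak, chr2:167257959-167258058: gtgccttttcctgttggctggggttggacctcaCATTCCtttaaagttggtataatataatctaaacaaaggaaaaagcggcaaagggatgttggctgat
Kcnk3 peak, chr5:30577392-30577491: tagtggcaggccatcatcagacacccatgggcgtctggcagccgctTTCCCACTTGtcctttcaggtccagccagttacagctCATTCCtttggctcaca
In the Nos3 and Pde5a peaks the capitals are the ETS sequence AGGAAG, with 2 overlapping copies at Nos3. The Gucy1a1 and Ece1 peaks hold the RBPJ sequence TGGGAA. The forkhead sequence TGTTTAC stands in the Prkg1 and Ednra peaks, and the HIF sequence ACGTG also in the Prkg1 peak. The Edn1 peak holds the GATA sequence AGATAAG and the Ptgis peak the TEAD sequence GGAATG. In the Kcnk3 peak there are TEAD, RBPJ and NKX2 (CAAGTG) matches, of which the last 2 overlap. The ETS matches and the forkhead match at Ednra are on the plus strand, and all others are on the minus strand and so appear as the reverse complement.

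The labelled tissue was checked against markers of cell types. All 5 endothelial markers, all 5 markers of alveolar type 1 cells, all 5 of alveolar type 2 cells and the lung factor gene Nkx2-1 had a peak, as did 50.1% of 21827 protein-coding genes. Of the smooth muscle markers 4 of 5 had one, with none at Cnn1. Their counts ran from 0 to 9, the most at Myocd, and those of the endothelial markers from 1, at Tie1, to 16. Per 100 kb, which allows for the short stretches at several smooth muscle markers, the medians were 2.74 for smooth muscle and 8.29 for endothelium. The airway marker Scgb1a1 had 16 peaks and Foxj1 had none. Markers of other tissues had a peak in 5 of 10 cases, near the 50.1% of all protein-coding genes, so they do not set lung apart. Neurod1 had 4 peaks, Myog 3, Ptprc 2, and Tnnt2 and Syp 1 each. There was none in the optimal set at Alb, Ttr, Myh6, Ckm or Hbb-bs. In lung tissue the share of each cell type sets how much of its chromatin is sampled. Fewer cells of a type and less EP300 per cell thus cannot be told apart.

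All 9 genes had at least 1 EP300 peak, as did 50.1% of protein-coding genes under the same rule. The median was 8 peaks per gene against 1 over all protein-coding genes, and the mean was 7.33 ± 4.61 (SD over 9 genes) against 1.97 ± 4.12 (SD over all genes). Long genes and genes far from others collect more peaks, and the stretch within which a peak was counted had a median of 153 kb for the 9 genes and 53.7 kb for all. Per 100 kb of that stretch the median of the 9 genes was 4.50 peaks, a density that 20.4% of all genes reached. As 49.9% of all genes had no peak, their median density, 0.105, lies at the edge of 0. With peaks and stretches summed over genes, the density was 2.90 per 100 kb for the 9 genes and 2.17 for all genes. The genes were chosen with results of these data known, so these figures describe the list and carry no test.

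Ece1 had the most peaks, 17 in the optimal set, 19 in replicate 1 and 16 in replicate 2, where each library is represented by its strongest 43988 peaks. Prkg1 followed in the libraries with 12 and 10, although the optimal set gave it 8. Edn1 had 9 in the optimal set, 9 in replicate 1 and 7 in replicate 2. Gucy1a1 had 9, 7 and 8, in the same order, and Ptgis had 9, 7 and 6. Ece1 and Prkg1 each stood above every gene below them in both libraries, whereas Edn1, Gucy1a1, Ptgis and Pde5a, with 6, 7 and 5, overlapped one another. Ednra had 3 peaks, with 3 in replicate 1 and 5 in replicate 2. Nos3 had 3, with 3 and 2, and Kcnk3 had 2, with 3 and 1, so the last genes in the order do not differ beyond their spread. Summed over the 9 genes, replicate 1 gave 70 peaks and replicate 2 gave 60 (mean 65.0 ± 7.07, SD, n = 2).

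**Figure D1:**
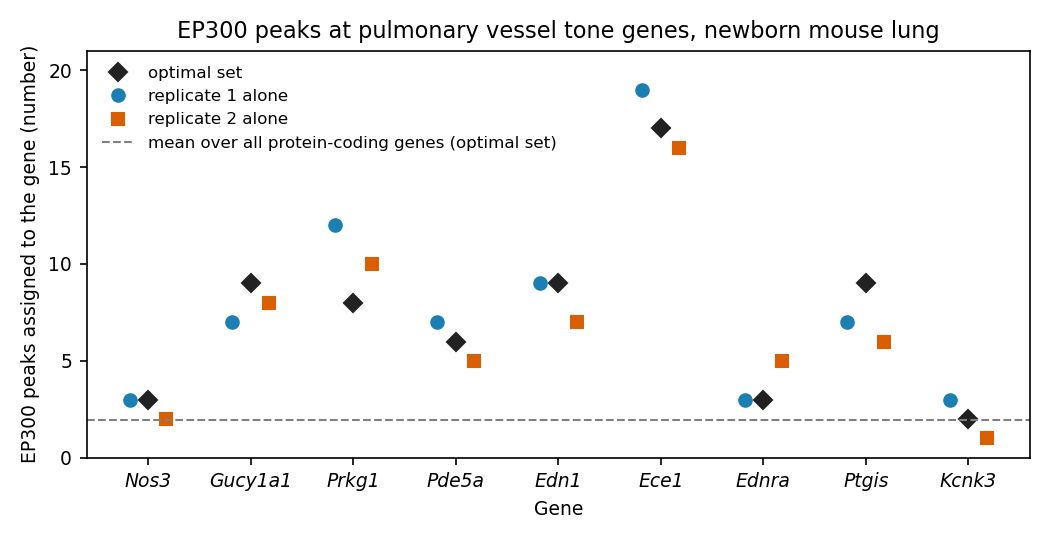
Number of EP300 peaks assigned to each gene (vertical axis) in the optimal set and in each library alone, with the mean over all protein-coding genes, 1.97, as a dashed line. Ece1 lies highest with 16 to 19 peaks, and Kcnk3 lies lowest with 1 to 3.

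Most of these peaks lay away from the start sites. Of the 66, 53 were more than 10 kb from the nearest TSS of their gene, and the median distance was 35.6 kb. Measured to the nearest TSS of any protein-coding gene, 68.3% of all optimal peaks lay beyond 10 kb and the medians were 34.9 kb for the 66 peaks and 25.3 kb for all. By place, 33 of the 66 peaks were intergenic, 29 intronic, 3 in promoters and 1 in a coding exon. Over all peaks the shares were 41.4% intergenic, 44.2% intronic, 12.3% in promoters and 0.641% in coding exons. A promoter here is the 1 kb on either side of a TSS. Only Edn1, Ece1 and Nos3 had a promoter peak, 3 of 9 genes, while 20.5% of all protein-coding genes had one. The number of genes with such a peak was 3 in either library alone too.

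Signal is the authors' own value for a peak in a given list, with no scaling stated, and ranks run from the strongest peak down. The 66 peaks had signals from 15.8 to 335 with a median of 44.7, and the median over all optimal peaks was 48.5. Peaks in the strongest 10% numbered 5, and 28 were in the stronger 50%. The 5 were 3 peaks of Ece1, the strongest of Edn1 and the strongest of Nos3, and the Ece1 peak of rank 152 was the only one in the strongest 1%.

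**Figure D2:**
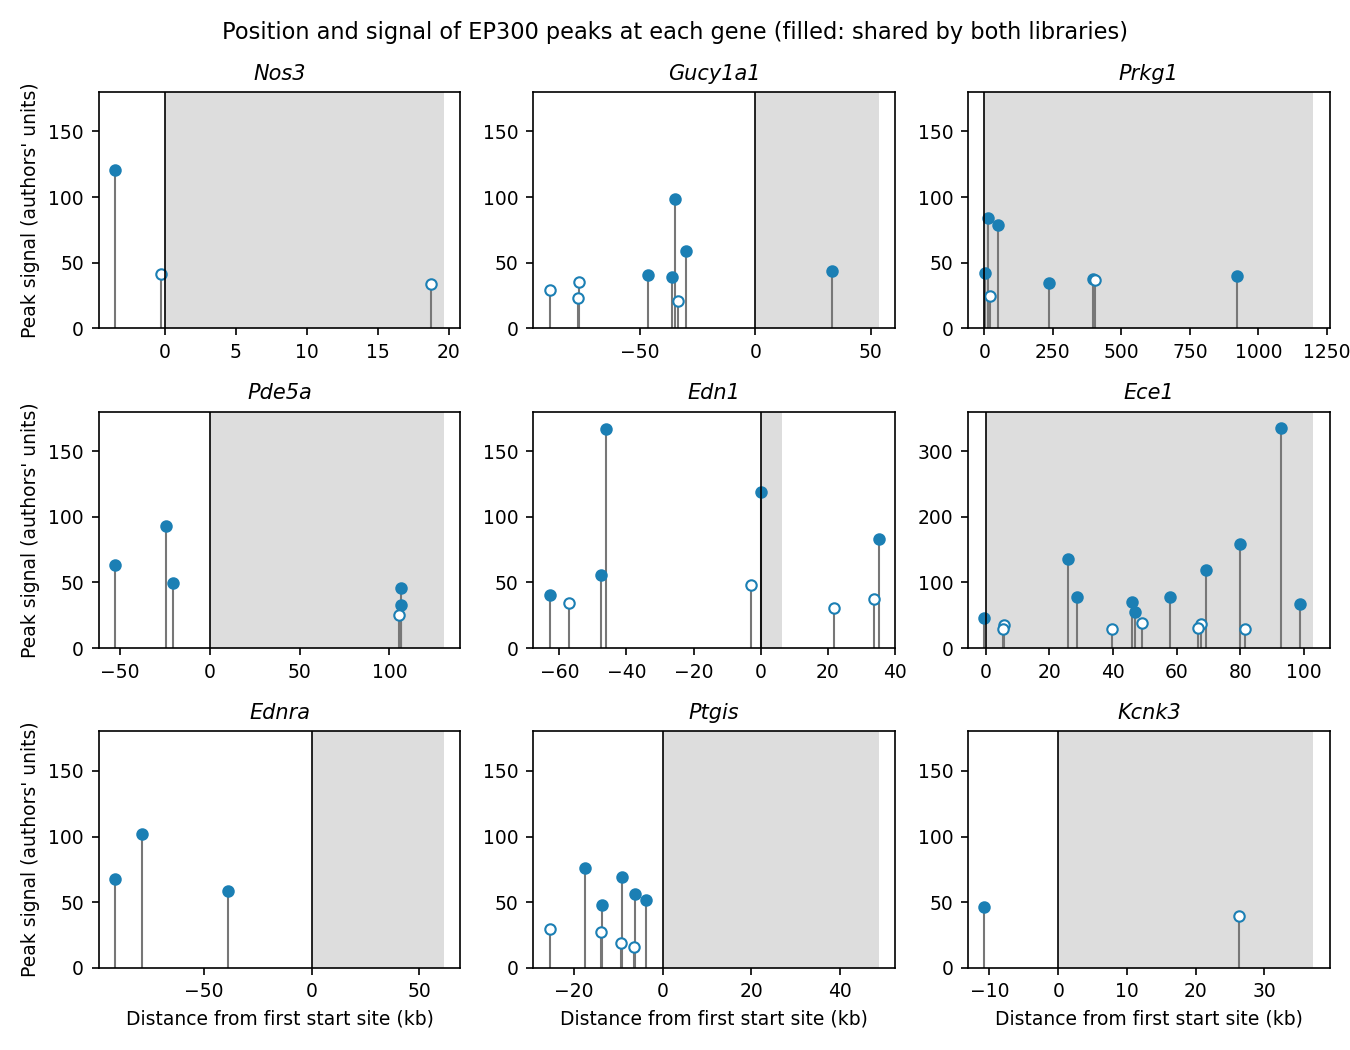
Signal of each EP300 peak (vertical axis, the authors' units) against its distance from the first start site of the gene in the direction of transcription (horizontal axis, kb), 1 panel a gene with its own horizontal scale. The grey band is the gene, and filled points are peaks shared by both libraries. The Ece1 panel has a taller vertical scale and holds the strongest peak, signal 335 at 93.0 kb, while no peak of Edn1, Ednra or Ptgis lies inside the gene.

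Nos3 (chromosome 5, 24364810 to 24384474, plus strand), the endothelial nitric oxide synthase gene, had a strong peak 3.50 kb upstream and weaker ones at the promoter and near its end. The upstream peak, at 24361103 to 24361526, had a signal of 121 and rank 4344, with 65.2 in replicate 1 and 49.8 in replicate 2 and ranks of 4970 and 5027. It was thus among the strongest peaks of either library. The promoter peak, with a summit 0.293 kb before the start, had a signal of 41.6 and rank 26956, and replicate 1 listed it at rank 31437. In replicate 2 no summit lay within 100 bp of it, but another peak within 1 kb of the start had rank 25034. The third peak (24383340 to 24383763, signal 33.5) lay in a coding exon 18.7 kb downstream, and its nearest TSS was that of Atg9b. Replicate 1 listed it at rank 17033 and replicate 2 did not list it within 100 bp. As the counted stretch at Nos3 was only 26.3 kb, its 3 peaks came to 11.4 per 100 kb, a density that 5.49% of all genes reached.

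Gucy1a1 (chromosome 3, 82092427 to 82145789, minus strand) had 9 peaks, of which 8 lay upstream of the gene between 29.8 and 88.8 kb from its start. Its strongest peak (82180233 to 82180656), 34.7 kb upstream, had a signal of 98.7 and rank 6746, with 50.1 in replicate 1 and 50.5 in replicate 2. Around it stood peaks at 29.8 kb (signal 59.3), 33.6 kb (20.5), 36.1 kb (38.8) and 46.3 kb (40.3). All of these but the one at 33.6 kb were shared by both libraries. The 3 peaks beyond 70 kb, with signals of 35.4, 22.9 and 29.2, each missed the strongest 43988 of a library or had no summit there. The only peak inside the gene, in an intron, had a signal of 43.6. No peak of the pooled list of 300000 had its summit within 1 kb of a Gucy1a1 start site.

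Prkg1 (chromosome 19, 30564489 to 31765033, minus strand), the cGMP-dependent kinase gene, is 1201 kb long and held all of its 8 peaks in introns. Its strongest peak (31751307 to 31751730), 13.5 kb from the first start, had a signal of 84.0, with 53.6 in replicate 1 and 30.8 in replicate 2. The next, 50.5 kb into the gene, had 79.0, with 48.4 and 30.4 in the libraries. The peaks at 2.52 kb and 21.7 kb were weaker, with signals of 41.9 and 24.95. The remaining 4, at 234 to 922 kb, had signals between 34.8 and 40.1 and were counted for lying inside the gene, 3 of them nearest to the TSS of Cstf2t. Both of its peaks in the stronger 50% of the set were thus those at 13.5 and 50.5 kb. The second lay about midway between the first start and a later start of Prkg1, 50.2 kb from the latter. Over its whole stretch Prkg1 had 0.637 peaks per 100 kb, the lowest density of the 9 genes, which 47.8% of all genes reached.

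Pde5a (chromosome 3, 122728947 to 122859374, plus strand), the gene of the phosphodiesterase that ends the cGMP signal, had 3 peaks upstream and 3 near its far end. The strongest (122704113 to 122704536) lay 24.6 kb upstream with a signal of 93.3 and rank 7536, and had 54.0 in replicate 1 and 40.5 in replicate 2, at ranks 7499 and 7682. The others upstream, at 20.3 and 52.7 kb, had signals of 49.6 and 63.3 and were shared by both libraries. Those inside the gene lay close together, about 106 kb from the first start. Their signals were 45.7, 32.7 and 25.2, the stronger 2 of them overlap, and their nearest TSS was that of Fabp2. Without the rule on gene bodies Pde5a kept 3 peaks.

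Edn1 (chromosome 13, 42301476 to 42307990, plus strand), the endothelin-1 gene, is 6.52 kb long and had 9 peaks around it. It was the gene with the strongest promoter peak of the 9. That peak (42301237 to 42301660) had its summit 0.027 kb before the start, with a signal of 119 and rank 4519, and 70.7 in replicate 1 and 47.5 in replicate 2. A distal peak 46.2 kb upstream (42255102 to 42255525) was stronger still, with a signal of 167 and rank 1852, and 94.98 and 70.2 in the libraries at ranks 1873 and 2150. The third, 35.2 kb downstream of the start (42336431 to 42336854), had a signal of 83.3 and 46.5 and 37.9 in the libraries. Each library ranked these 3 in the same order. The other 6 had signals from 30.8 to 55.3. One of them, 47.5 kb upstream and beside the strongest peak, had 38.1 in replicate 1 and 14.8 in replicate 2, and the peak at 21.7 kb had no summit within 100 bp in either library.

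The Edn1 promoter is shown because the strongest promoter peak lay on it: the 250 bases before the RefSeq start (GRCm38.p6) and the first 30 of the transcript, plus strand, with matches in capitals.
Edn1 promoter, chr13:42301226-42301505: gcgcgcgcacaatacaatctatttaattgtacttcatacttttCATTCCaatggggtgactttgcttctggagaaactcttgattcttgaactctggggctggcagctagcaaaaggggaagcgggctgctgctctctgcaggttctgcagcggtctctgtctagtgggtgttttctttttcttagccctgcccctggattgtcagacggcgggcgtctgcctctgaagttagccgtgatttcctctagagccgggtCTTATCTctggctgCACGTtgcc
The matches are a TEAD sequence 207 bases before the start, a GATA sequence beginning 7 bases after the start base and a HIF sequence 21 bases after it. In 280-base windows at all 32851 RefSeq start entries, 13.9% held the TEAD sequence, 2.94% the GATA sequence and 18.5% the HIF sequence.

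Ece1 (chromosome 4, 137862237 to 137965229, plus strand), which encodes the enzyme that releases active endothelin, had 16 of its 17 peaks inside the gene and the last at its promoter. Only 1.35% of protein-coding genes had as many peaks, and 4.54% had a density as high as its 12.5 per 100 kb. The strongest peak of all 9 genes (137955095 to 137955380) lay in an intron 93.0 kb from the start. It had a signal of 335, and 176 in replicate 1 and 161 in replicate 2, at ranks 191 and 118. Further intronic peaks at 80.0, 25.9 and 69.1 kb had signals of 159, 135 and 119, and all 3 were shared by both libraries. The peak at 69.1 kb was higher in replicate 2 (63.1) than in replicate 1 (54.9). The promoter peak, 0.417 kb before the start, was weaker, with a signal of 45.9 and rank 23699.

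Ece1 has further start sites in RefSeq, and the intronic peak at 58.0 kb (137920038 to 137920461, signal 78.5) had its summit 0.543 kb before one of them, at 137920793. This peak had 36.8 in replicate 1 and 42.5 in replicate 2. It was the only peak of the genes with a RefSeq promoter entry (6 of 9) that was promoter-proximal by RefSeq alone. Several peaks toward the end of Ece1, the strongest included, were nearer to the TSS of the next gene, Eif4g3, and by the nearest TSS alone Ece1 had 10 peaks.

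Ednra (chromosome 8, 77663031 to 77724464, minus strand), the endothelin receptor gene of smooth muscle, had 3 peaks, all upstream and intergenic. They lay 38.7, 78.8 and 91.1 kb before the start. The strongest, at 78.8 kb (77803071 to 77803494), had a signal of 102 and rank 6343, with 56.7 in replicate 1 and 41.9 in replicate 2. The peak at 91.1 kb had 67.4, with 34.0 and 29.0 in the libraries, and that at 38.7 kb had 58.6, with 26.5 and 29.8. All 3 were in the stronger 50% of the optimal set and shared by both libraries, the only gene of which this held. None lay in the gene or at its promoter, where the strongest pooled peak had rank 84611.

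Ptgis (chromosome 2, 167191805 to 167240604, minus strand), the prostacyclin synthase gene, had 9 peaks, all in the 25.5 kb upstream of the gene and none inside it. The strongest, 17.4 kb upstream (167257797 to 167258220), had a signal of 76.2, with 37.5 in replicate 1 and 39.0 in replicate 2. Peaks at 9.24, 6.29, 3.83 and 13.7 kb followed with signals of 69.2, 56.2, 51.6 and 47.6. Among its shared peaks the one at 6.29 kb differed most between the libraries, with 39.8 in replicate 1 and 14.4 in replicate 2. Of the 4 weaker peaks, at 29.9 or less, 3 overlapped a stronger one, so that 6 separate stretches were bound. With overlapping peaks counted separately, Ptgis had 8.73 peaks per 100 kb, a density that 8.78% of all genes reached.

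Kcnk3 (chromosome 5, 30588170 to 30625271, plus strand), the potassium channel gene, had the fewest peaks, and its strongest was the weakest of the 9 strongest. One lay 10.7 kb upstream (30577230 to 30577653) with a signal of 46.3, and 22.7 in replicate 1 and 21.3 in replicate 2. The other lay in an intron 26.3 kb downstream with a signal of 39.8, and 27.2 and 11.8 in the libraries. Only the upstream peak was shared, and neither was in the stronger 50% of the set. No peak of either library had its summit within 1 kb of the Kcnk3 start, and in the pooled list the strongest there had rank 250230.

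Of the genes with no reproducible promoter peak, Prkg1, Pde5a and Ptgis also had some weak pooled peak within 1 kb of a start, at ranks 70239, 87567 and 148124 of 300000. The optimal peaks themselves had a median rank of 22303 in that list. Replicate 2 listed none there at Pde5a, Ptgis, Ednra, Gucy1a1 or Kcnk3.

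The distance limit cut through some of these neighbourhoods. Just inside it were the Gucy1a1 peak at 88.8 kb (signal 29.2) and the Ednra peak at 91.1 kb (67.4). Just outside were peaks nearest to Edn1 at 102 kb (33.8) and 147 kb (57.7), to Gucy1a1 at 105 kb (38.1) and to Ednra at 110 kb (62.2).

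The libraries listed most of these peaks in common. A peak was called shared when each library had a summit within 100 bp of it among its strongest 43988, which held for 41 of 66 peaks (62.1%, 95% Wilson interval 50.1 to 72.9%, for the counting of peaks only) and for 63% of all optimal peaks. In the conservative IDR set, a stricter set by the same authors, 50 of the 66 had the same summit, and 80.1% of all optimal peaks did. Over the 41 shared peaks the log2 ratio of replicate 2 to replicate 1 had a median of -0.30 and ran from -1.47 to 0.29. Over all 27704 shared peaks the median was -0.38 with an SD of 0.44. Relative to that median, 40 of the 41 were within 2-fold, the exception being the Ptgis peak at 6.29 kb. No such share over all shared peaks is given, so the count describes these peaks only. A shared peak must rank high in both libraries, so the rule can leave out peaks that differ more. Among unshared peaks listed by both, the ratio ran from -1.80 (Ptgis, 13.9 kb) to 0.84 (Gucy1a1, 76.3 kb).

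**Figure D3:**
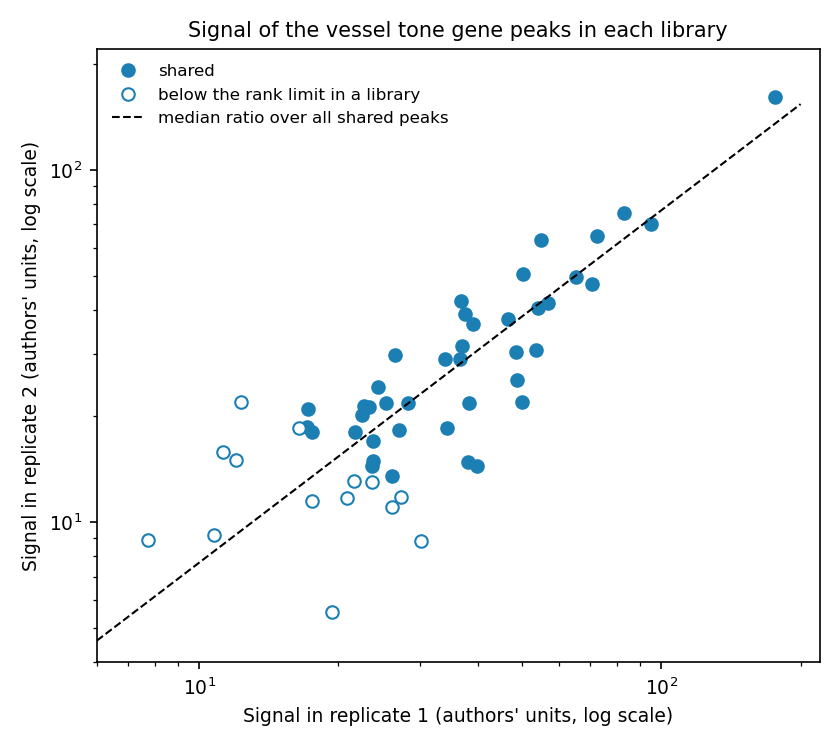
Signal of the peaks of the 9 genes in replicate 1 (horizontal axis) and replicate 2 (vertical axis), both log scales in the authors' units, for the 55 peaks with a summit within 100 bp in both lists. Filled points are shared peaks, and the dashed line is the median ratio over all shared optimal peaks. The Ece1 peak with 176 and 161 lies at the upper right.

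Sequence under the summits was described by 15 short consensus sequences, searched on both strands in the central 100 bp. Of the 66 peaks, 42 (63.6%) held at least 1, and 65.1% of all optimal peaks did. The ETS sequence AGGAAG, of the family that includes endothelial regulators such as ERG, was in 15 peaks (22.7%), against 21.5% of all peaks. It was in 4 peaks of Edn1 and 4 of Ece1. The RBPJ sequence TGGGAA, bound by the DNA-binding partner of Notch, was in 14 peaks (21.2%), against 11.9% of all peaks, and 5 of the 14 were at Gucy1a1. That difference was not tested.

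The other sequences were in fewer of the 66 peaks. TEAD (GGAATG) was in 6, or 9.09%, against 11.7% of all peaks. Forkhead (TGTTTAC), HIF (ACGTG) and NKX2 (CAAGTG) were in 5 each, or 7.58%, against 5.35%, 6.48% and 9.28%. C/EBP (TTGCNNAA) was in 4, or 6.06%, against 8.70%. AP-1 (TGANTCA) and KLF/SP (GGGCGG) were in 3 each, or 4.55%, against 7.67% and 4.66%. The GATA sequence AGATAAG was in 1, or 1.52%, against 3.23%.

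Several of these shares moved when the peaks of a single library were used, 70 in replicate 1 and 60 in replicate 2. AP-1 was in 4.29% of the peaks of replicate 1 and 10% of those of replicate 2. KLF/SP was in 5.71% and in none of 60, which allows a share of up to 5%. NKX2 was in 12.9% and 11.7%, above its 7.58% in the optimal set in both libraries. TEAD was also in 12.9% and 11.7%, ETS in 18.6% and 28.3%, and GATA in 2.86% and 1.67%. For AP-1, KLF/SP, NKX2, TEAD and ETS the side of the share over all optimal peaks on which the 9 genes lay thus differed between the optimal set and at least 1 library, and no difference from all peaks is read from them. RBPJ was in 20% and 21.7%. The share over all peaks of a single library was not computed. The library shares, that of RBPJ included, were thus set against the optimal set only.

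The glucocorticoid response element, GNACA and TGTNC parted by 3 bases, was in 0 of 66 peaks, which allows a share of up to 4.55%, and in 2.17% of all optimal peaks. It was in 1 of the 60 peaks of replicate 2 and in none of the 70 of replicate 1, which allows up to 4.29%. A difference could not be detected with this number of peaks. The CArG box of smooth muscle genes, CRE (TGACGTCA), NFI (TTGGC and GCCAA parted by 5 bases) and MEF2 were also in none, and in 0.509%, 0.403%, 0.0409% and 0.516% of all peaks. The peak centres had a median GC content of 48% against 47% over all peaks.

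**Figure D4:**
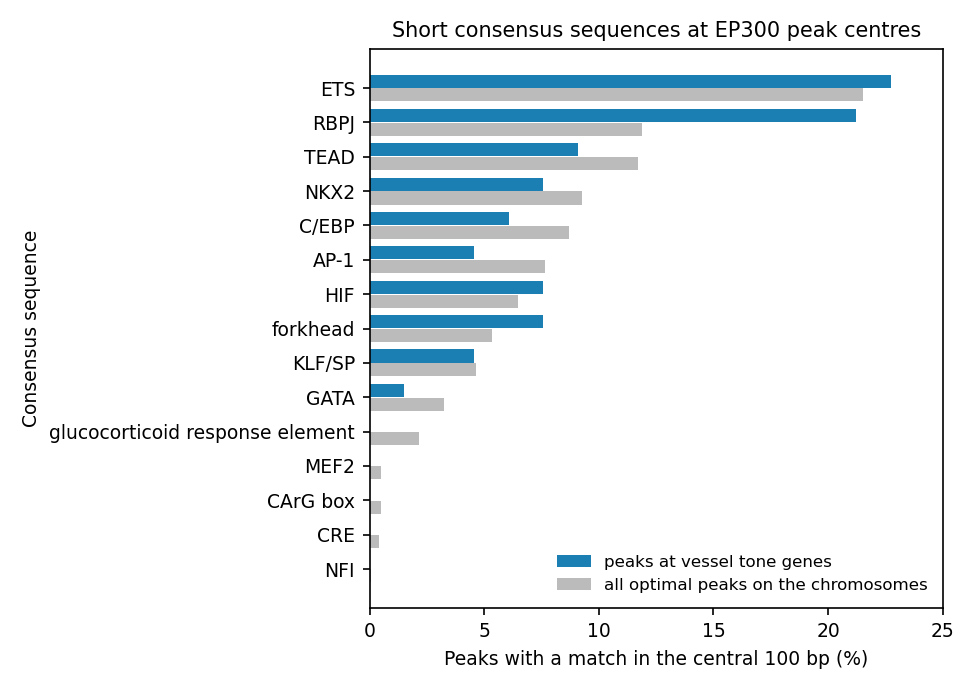
Share of peaks with a match in the central 100 bp (horizontal axis, percent) for each of 15 consensus sequences, at the 66 peaks of the 9 genes and at all 43972 optimal peaks on the chromosomes. The bars for ETS lie close together at 22.7% and 21.5%, those for RBPJ stand at 21.2% and 11.9%, and 5 sequences have no match at the 9 genes.

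Other genes of the same and related pathways, 66 in all, were counted by the same rule. They belong to nitric oxide and cGMP, endothelin and prostanoid signalling, vessel channels, peptide and BMP inputs, and contraction. At least 1 peak was found at 51 of the 66, a larger share than the 50.1% of all genes. A promoter peak was found at 16 of the 66, also a larger share than the 20.5% of all genes. The median of the 66 genes was 3 peaks, with a range from 0 to 23, and 3.12 per 100 kb. Most peaks were at Cacna1c, the L-type calcium channel gene, with 23, and at Slco2a1, the prostaglandin transporter gene, with 21. Mrvi1, whose product is a substrate of the kinase encoded by Prkg1, had 19, and Ptgs1, a cyclooxygenase gene, had 17. Pde3a, a phosphodiesterase gene, and Ednrb, the gene of the type B endothelin receptor, had 14 each. Slco2a1 had 14 peaks in replicate 1 and 15 in replicate 2. The counted stretch at Cacna1c was 629 kb, so its 23 peaks came to 3.66 per 100 kb, near the median of 3.12. Per 100 kb Slco2a1, Mrvi1 and Ptgs1 had 12.0, 13.8 and 14.4, Ednrb had 7.09 and Pde3a had 3.91.

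The closest partners of the 9 genes ranged widely. Ednrb, expressed in endothelium, had 14 peaks in the optimal set and in each library, above the 3 of Ednra (3 and 5 in the libraries). Gucy1b1, the beta subunit partner of Gucy1a1, had 3, with 3 and 4 in the libraries. The other endothelin genes Edn3 and Edn2 had 7 and 6, and Ece2 had none. Among the synthases Nos1 had 1 and Nos2 none. Prkg2 had 4, with 3 in replicate 1 and 7 in replicate 2, Kcnk9 had 2, and Ptgir, the prostacyclin receptor gene, had none in the optimal set or in either library.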

How the data were processed

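Deposit notes give the origin of the lists. Per these deposited notes, alignments were to mm10, peaks were found in either library and in their pool, each with 1 further file that the notes do not name, and IDR gave the optimal and conservative sets. The aligner and the caller, with their versions, are not given in the sources used here. Signal is the deposited peak value, of unstated scale, and served to rank and describe peaks. All 43972 of the 43988 optimal peaks that lie on the chromosomes ended inside those of GRCm38.p6, and sequence was read for these. Genes and TSSs were those of the GENCODE vM21 basic set, and summits were the peak start plus the deposited offset. The genes, lists and motifs were chosen with earlier results of these data known, and no test was run, since 2 libraries form 1 group. By rule the text names all 9 genes, the strongest and the promoter peaks of each, peaks in the strongest 1%, the 6 pathway genes with most peaks (ties by strongest peak) and the direct partners. Further peaks, neighbouring genes and markers were named after their values were seen. Alternatives were another peak set, distance rule, overlap rule, motif window and annotation. The code was tested on simulated data. Python 3.11.15, numpy 2.4.6, pandas 2.3.3, scipy 1.17.1, matplotlib 3.10.9 and samtools 1.23.1 were used.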

Additional observations from a re-analysis of the deposited data

How the results depend on the processing

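The number of peaks at the 9 genes stayed within 1.5 times of 66 under 8 of 10 settings. It was 28 with the stronger 50% of the optimal set and 30 with gene bodies alone, both of which remove peaks by construction. Genes with a promoter peak numbered 3 under every setting run but the stronger 50%, which left 1. Peaks shared by both libraries were 50% with summits within 50 bp, 74.2% with any overlap of 1 bp and 83.3% with all peaks of each list. Peaks with any of the consensus sequences were 40.9% in the central 50 bp, 87.9% in the central 200 bp, 64.5% in the conservative set and 68.3% with overlapping peaks merged. With 1 library alone the share was 71.4% to 71.7%, and the cause was not tested. Shares of single consensus sequences moved by more than the spread between the libraries in 38 of 90 comparisons. These include the sequences with no match at the 9 genes, most of whose comparisons set 0 against 0 and counted as unchanged. Counts at single genes stayed within 1.5 times in 67 of 90 comparisons. Ednra had 5 peaks and Kcnk3 had 1 without replicate 1, and both had 1 with TSSs of any gene type, a setting under which Edn1 had 6. The comprehensive annotation, added after the data had been seen, left 66 and 3. Sharing and the ratio between libraries need both libraries, so neither was left out there. No paired analysis was possible because the libraries form a single group.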
